A study of Mus musculus with 16 samples.

Results

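The genes described here carry out or control the breakdown of fatty acids in mitochondria, and were measured in cultured mouse heart slices by RNA sequencing. They are 10 genes chosen by name, namely Cpt1a, Cpt1b, Cpt2, Acadm, Acadl, Acadvl, Hadha, Hadhb, Ppara and Ppargc1a. Each was found under 1 Ensembl identifier among the 55487 genes with deposited counts, and all 10 passed the filter of at least 10 counts in total over the 16 libraries. The 16 libraries form 4 groups of 4. Swhtr null treated and Swhtr null untreated slices came from mice with a transcriptional stop signal on both alleles of Swhtr (Swhtr3xpA/3xpA), a gene for a nuclear RNA of the heart that codes for no protein. WT treated and WT untreated slices came from C57Bl6/J mice, which carried no stop signal. Treated slices spent 7 days at 3% oxygen and then 7 days at 21% oxygen, and untreated slices spent 14 days at 21% oxygen. All mice were males aged 8 weeks, 4 per genotype, so that some of the libraries of a genotype must share a mouse, and which do is not stated. The null line goes back to hybrid embryonic stem cells backcrossed to C57BL/6J and was kept by breeding homozygotes, and its stop signal is present in every cell of the body and throughout life. Because Swhtr is not among the annotated genes counted, the genotype labels were not checked from the counts.

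Long fatty acids are bound to carnitine on the outer mitochondrial membrane by the carnitine palmitoyltransferases of the CPT1 kind, cross the inner membrane and are released inside by CPT2. Acyl-CoA dehydrogenases for chains of different length then begin each turn of beta-oxidation, and the trifunctional protein, built of HADHA and HADHB, completes it for long chains. The nuclear receptor PPARA and the coactivator PPARGC1A switch these genes on, and in the adult heart fatty acids are the main fuel of the muscle cells.

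The libraries held 17830351 to 29941903 counts each. Markers of heart muscle cells were scarce in all of them. The 12 cardiomyocyte markers summed to 11.4 to 99.2 CPM (counts scaled to a common library size after TMM normalization) in Swhtr null treated, 7.39 to 13.0 CPM in Swhtr null untreated, 9.19 to 54.6 CPM in WT treated and 7.82 to 22.2 CPM in WT untreated libraries, whereas 8 fibroblast markers summed to 22660 to 32840 CPM and 10 macrophage markers to 4041 to 12980 CPM over the 16 libraries. The labelled tissue is heart, but the markers of its muscle cells were thus close to absent from the RNA. Myh7 and Ckm were at 0 counts in 11 of the 16 libraries each and Pln in 4, and no other cardiomyocyte, macrophage, fibroblast or endothelial marker was at 0 in any library. In such bulk samples fewer cells of a type and less RNA per cell cannot be told apart. Swhtr null treated library 2 stood apart, with the lowest macrophage sum (4041 CPM, against 7635 to 10190 CPM in the other 3 libraries of its group) and the highest cardiomyocyte sum (99.2 CPM). It was not alone in this, since Swhtr null treated library 3 had a cardiomyocyte sum of 74.7 CPM, against 15.2 and 11.4 CPM in libraries 1 and 4. Swhtr null untreated library 2 had the lowest macrophage sum of its own group (8028 CPM, against 10687 to 12983 CPM in the other 3), and without it 575 genes of the whole table were called between Swhtr null treated and untreated slices, against 155 with it.

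Among the members, Hadha and Hadhb lie head to head on chromosome 5. Hadha ends at its 5′ side at position 30155162 of the minus strand and Hadhb begins at position 30155248 of the plus strand (GRCm38, GENCODE M21). The 85 bases between them are shown because they part the GENCODE 5′ ends of the genes for both subunits of 1 enzyme. They follow on the plus strand from chr5:30155163-30155247, read from the RefSeq promoter windows (GRCm38.p6). The start sites of these windows differ from the GENCODE ends, at 30154980 for Hadha and 30155253 for Hadhb. Capitals mark GGGCGG, the GC box, which was searched on both strands and occurs at 2 places.
Hadha-Hadhb: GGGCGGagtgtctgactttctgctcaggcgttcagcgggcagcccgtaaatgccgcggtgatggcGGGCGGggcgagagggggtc
The stretch directly upstream of Ppargc1a, the member with the largest fold change between Swhtr null and WT treated slices, was read from the same source (chr5:51567727-51567975, minus strand, 249 bases). Capitals mark a run in which TGACG, the core of cAMP response elements, and ACGTG, the core of hypoxia response elements, overlap, both read on the opposite strand.
Ppargc1a: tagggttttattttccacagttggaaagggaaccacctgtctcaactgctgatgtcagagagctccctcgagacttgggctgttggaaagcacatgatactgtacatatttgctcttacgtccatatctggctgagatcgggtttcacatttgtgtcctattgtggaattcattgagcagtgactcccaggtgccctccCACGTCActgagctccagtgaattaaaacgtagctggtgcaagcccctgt
Windows around the start site were matched for 9 of the 10 members, all but Cpt1b. GGGCGG was present in 6 of these 9 windows and in 35.9% of 27025 promoter windows of the table, and the windows of Hadha and Hadhb overlap. AGGTCA, the core to which nuclear receptors such as PPARA bind, was present in the windows of Acadm, Acadvl and Cpt1a and in 16% of all windows, and the longer TNAAGGTCA, which contains it and is bound by the estrogen-related receptors, in 0 of 9 and in 1.26%. TGACG was present in 3 of 9 windows (Acadm, Ppargc1a and Ppara) and in 21.0% of all, and ACGTG in 2 of 9 (Ppargc1a and Acadvl) and in 19.7%. These matches describe the letters in the windows, not binding.

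The way the reads were counted bears on Cpt1b and Acadvl. Of 239 genes whose exonic bases are all shared with a gene of the same strand, 239 were at 0 counts in the 16 libraries together, as were 249 of 252 genes whose exonic bases are all shared with a gene of the opposite strand only, against 38.2% of 37663 genes with no shared base. By these numbers, reads in shared exons were left out of the counts whatever their strand. Cpt1b (chromosome 15, 89416405 to 89425863) shares 2744 bases, 81.4% of its exonic length, with the readthrough gene Gm44502, which had 0 counts in all libraries. Acadvl (chromosome 11, 70010183 to 70015411) shares 1151 bases, 42.9%, with Dvl2 on the opposite strand, and Hadha shares 75 bases, 0.859%, with Garem2. The other members share no exonic base with another gene. They are Acadl (chromosome 1, 66830839 to 66863277), Acadm (chromosome 3, 153922357 to 153944632), Cpt2 (chromosome 4, 107903981 to 107923610), Hadhb (chromosome 5, 30155248 to 30184593), Ppargc1a (chromosome 5, 51454250 to 51567726), Ppara (chromosome 15, 85734983 to 85802819) and Cpt1a on chromosome 19. The level of Cpt1b rests on the other 628 bases and that of Acadvl on 1535 bases, and the CPM of both leave out the reads of their shared exons. Reads that reach from an unshared into a shared stretch may be left out too. The levels of both per kilobase of unshared length may therefore be too low, which was not tested.

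Per kilobase of unshared exonic length, the 10 genes fell into a group of 7 well expressed enzymes and 3 genes near the lower end of what was counted. Acadl, the long-chain acyl-CoA dehydrogenase, came first with a mean of 54.8 CPM per kb (48.2 to 60.8 over the 16 libraries). It was followed by Acadvl, the dehydrogenase for very long chains (26.2), Cpt1a, the liver form of the outer carnitine palmitoyltransferase (24.5), Hadha (20.004), Hadhb (14.090), Acadm, the medium-chain dehydrogenase (14.003), and Cpt2 (12.8 CPM per kb). Cpt1b, the muscle form of the outer enzyme, had 0.660 CPM per kb, Ppara 0.112 and Ppargc1a 0.0669. The ranges over libraries of Acadl and Acadvl, of Cpt1a and Hadha, of Hadha and Hadhb, and of Cpt2 and Cpt1b did not overlap. Those of Acadvl and Cpt1a, of Hadhb and Acadm, of Acadm and Cpt2, of Cpt1b and Ppara, and of Ppara and Ppargc1a did, and these neighbours are not ordered beyond their spread. With the length of the principal transcript in place of the exonic length, the order of the enzymes was Acadl (57.4), Hadhb (45.4), Cpt1a (43.4), Hadha (43.1), Acadm (26.8), Acadvl (18.6) and Cpt2 (12.9 CPM per kb) with the shared bases of Acadvl counted in. Acadvl, Hadhb and Acadm changed places between the orders, and the other 7 genes did not. With the principal transcript the ranges of Hadhb and Cpt1a and of Cpt1a and Hadha overlapped. Whether Cpt1a stood apart from Hadha thus depended on the length used.

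**Figure D1:**
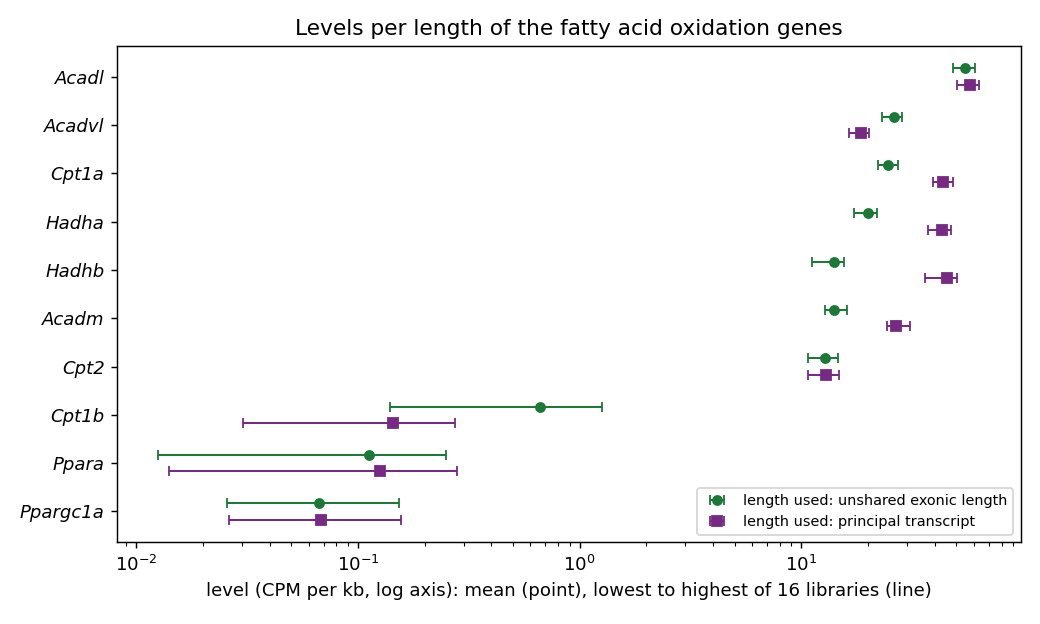
Level of each gene in CPM per kb on a log axis, as the mean (point) and the lowest to highest of 16 libraries (line), with the unshared exonic length (circles) or the principal transcript (squares) as the length. Acadl is the highest under both lengths (54.8 and 57.4 CPM per kb), and Cpt1b, Ppara and Ppargc1a reach at most 1.26 CPM per kb in any library.

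The outer carnitine palmitoyltransferase was mainly represented by its liver form. Cpt1a (chromosome 19, 3322334 to 3385733) ranged between 169.0 and 208.7 CPM over the 16 libraries and Cpt1b between 0.0878 and 0.794 CPM, from 2 to 17 counts per library. Per kilobase of unshared length Cpt1a stood 18.9 to 175 times above Cpt1b in single libraries, with a median of 42.4. The highest of these ratios rests on 2 counts of Cpt1b (WT treated library 2). All of them may be too high if reads that reach into the shared bases of Cpt1b were left out. Cpt1c, the neuronal form, lay between them at 6.03 CPM per kb. The library with the most cardiomyocyte marker RNA was not the one with the most Cpt1b. Swhtr null treated library 2, at 99.2 CPM of cardiomyocyte markers, had 0.290 CPM of Cpt1b, and WT untreated library 3, with the highest Cpt1b level (0.794 CPM), had 8.74 CPM of cardiomyocyte markers. With 2 to 17 counts of Cpt1b per library, its order over single libraries carries little. A relation of Cpt1b to these markers was not tested.

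The 7 enzymes varied little. Their coefficients of variation over all 16 libraries lay between 5.37% for Hadha and 8.25% for Cpt2, against a median of 9.22% for the 9747 genes with a mean of at least 10 CPM, of which 11.8% (Hadha) to 40.8% (Cpt2) had a smaller one. These genes were not matched to the enzymes by level, and fewer counts bring more counting noise. The enzymes had means of 30.7 CPM (Cpt2) to 187 CPM (Cpt1a). The highest library exceeded the lowest by a factor of 1.23 for Acadvl to 1.39 for Hadhb. The sum of the 10 genes was 691 ± 41.5 CPM in Swhtr null treated, 694 ± 18.6 CPM in Swhtr null untreated, 695 ± 13.7 CPM in WT treated and 681 ± 7.93 CPM in WT untreated libraries (SD, n = 4 each).

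**Figure D2:**
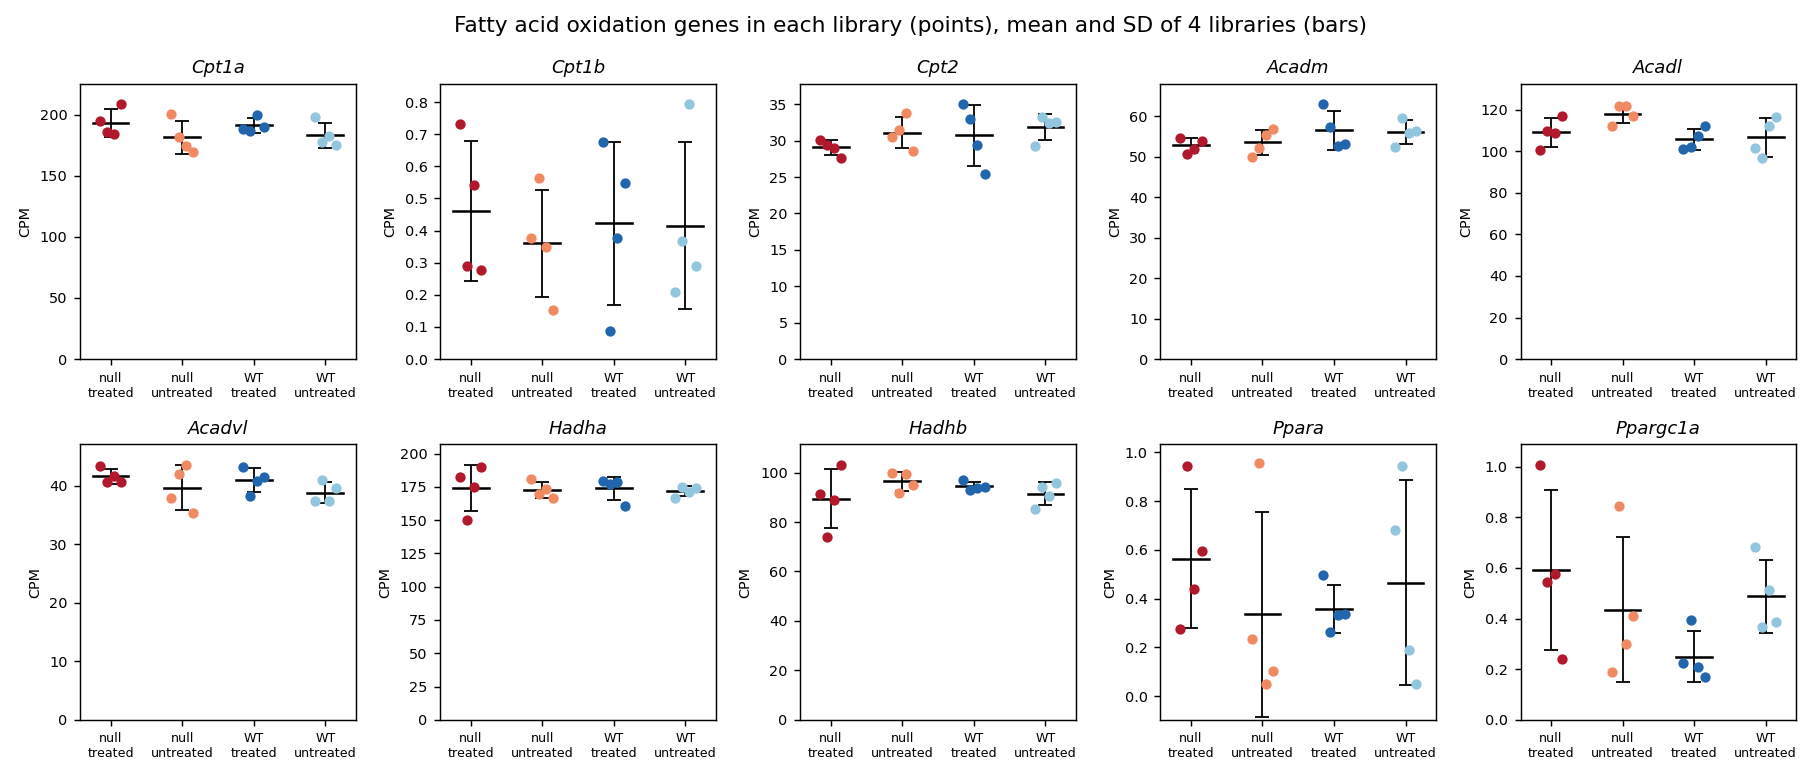
Level of each of the 10 genes in CPM (linear axes that include 0) in the 16 libraries (points), with each group's mean and SD (bars, n = 4). For every gene the libraries of the groups overlap, as for Hadhb with 74.0 to 103.2 CPM in Swhtr null treated and 91.8 to 99.8 CPM in Swhtr null untreated slices.

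The first comparison asked whether the response to a period of low oxygen involved these genes in slices without Swhtr. In Swhtr null treated against untreated slices, 0 of the 10 genes were called, a call being an adjusted p under 0.05 in the quasi-likelihood test of edgeR (Benjamini-Hochberg over 24971 genes) and an absolute log2 fold change over 0.58. Of all genes tested 0.621% were called (155), and 450 genes with the replicate number as a block, in which again none of the 10 was. DESeq2 also called 0 of the 10, in this and in the other 4 comparisons, and without Swhtr null treated library 2 edgeR called 0 of the 10 and 80 genes in all. No member had an unadjusted p under 0.05, as 16.5% of all genes did, and for none did the treated libraries lie wholly above or below the untreated ones, as for 7.32% of all genes. Of the 10 genes 6 had a positive and 4 a negative log2 fold change, with a median of 0.041 beside 0.012 over all genes tested. For the 7 enzymes the log2 fold changes ran from -0.11 to 0.09 and their 95% intervals together from a fold of 0.821 to a fold of 1.17. For the 3 low genes the intervals reached from a fold of 0.539 to a fold of 5.18, and changes of such size could not be told from none at these counts.

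Cpt1a, whose product sets the rate of mitochondrial fatty acid entry, had 194.6, 185.5, 183.9 and 208.7 CPM in Swhtr null treated libraries, against 200.4, 181.8, 174.4 and 169.0 CPM in Swhtr null untreated libraries. The groups overlapped, with treated library 4 the highest and untreated library 4 the lowest. The log2 fold change was 0.09 (SE 0.06, adjusted p = 0.515 by edgeR). Cpt2 averaged 29.1 ± 1.03 CPM in Swhtr null treated and 31.1 ± 2.17 CPM in Swhtr null untreated slices (SD, n = 4 each), a log2 fold change of -0.10 (SE 0.09). Cpt2 was lower in the treated library in 4 of 4 same-numbered Swhtr null pairs. The share of all genes that do so was not counted, and equal numbers are not known to mark pairs. With the replicate number as a block the log2 fold change of Cpt2 was again -0.10 (adjusted p = 0.593 by edgeR).

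Of the dehydrogenases, Acadl had the smallest p of all members in this comparison. It had 100.6, 110.0, 108.9 and 117.1 CPM in Swhtr null treated libraries, against 112.1, 121.8, 121.8 and 116.9 CPM in Swhtr null untreated libraries. Treated libraries 1 to 3 lay below all untreated ones and treated library 4 among them. The log2 fold change was -0.11 (SE 0.07, adjusted p = 0.409 by edgeR). Acadm averaged 52.9 ± 1.83 CPM in Swhtr null treated and 53.6 ± 3.16 CPM in Swhtr null untreated slices, and Acadvl averaged 41.6 ± 1.25 CPM in Swhtr null treated and 39.7 ± 3.77 CPM in Swhtr null untreated slices (SD, n = 4 each). Their log2 fold changes were -0.02 (SE 0.07) and 0.07 (SE 0.07).

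Both subunits of the trifunctional protein were lowest in Swhtr null treated library 2, the library with the least macrophage marker RNA. Hadhb had 91.4, 74.0, 89.0 and 103.2 CPM in Swhtr null treated libraries, against 99.8, 91.8, 99.3 and 95.03 CPM in Swhtr null untreated libraries. Hadha had 182.2, 150.3, 174.9 and 190.0 CPM in Swhtr null treated libraries, against 181.0, 169.7, 173.3 and 166.3 CPM in Swhtr null untreated libraries. For both genes treated library 2 lay lowest and treated library 4 highest of the 8. The log2 fold change was -0.11 (SE 0.08, adjusted p = 0.496 by edgeR) for Hadhb and 0.01 (SE 0.07) for Hadha, and without Swhtr null treated library 2 it was -0.030 and 0.079. The ratio of Hadhb to Hadha in CPM, counts that come from the head-to-head pair shown above, lay between 0.492 and 0.585 over all 16 libraries. It was 0.512 ± 0.0220 in Swhtr null treated, 0.559 ± 0.0157 in Swhtr null untreated, 0.544 ± 0.0281 in WT treated and 0.532 ± 0.0158 in WT untreated libraries (SD, n = 4 each). Set beside the untreated library of the same number, the treated library had the lower ratio in 4 of 4 Swhtr null pairs (0.502 against 0.551, 0.493 against 0.541, 0.509 against 0.573 and 0.543 against 0.571) and in 2 of 4 WT pairs, a description with no test. This was not particular to Hadhb and Hadha. The ratio of Acadvl to Acadl was higher in the treated library in 4 of 4 Swhtr null pairs and in 3 of 4 WT pairs. The ratios of Acadm to Acadl and of Cpt2 to Cpt1a went both ways. The macrophage markers had, without exception in 10, negative log2 fold changes in this comparison (median -0.55, 0 called), and the part of cell composition in these values was not tested.

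**Figure D3:**
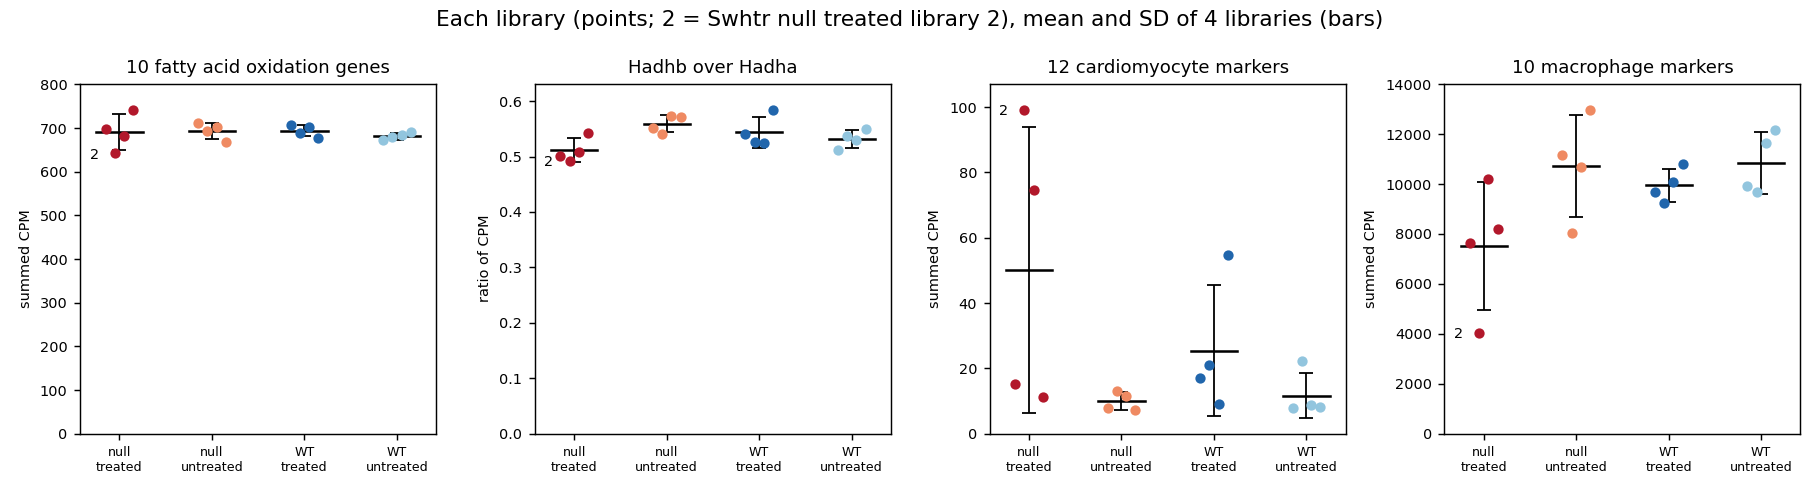
Summed CPM of the 10 genes, ratio of Hadhb to Hadha, and summed CPM of 12 cardiomyocyte and 10 macrophage markers in each library (points, linear axes from 0; the digit 2 marks Swhtr null treated library 2), with the mean and SD of 4 libraries (bars). Library 2 has the lowest sum of the 10 genes (643 CPM), the highest cardiomyocyte sum (99.2 CPM) and the lowest macrophage sum (4041 CPM).

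The regulators Ppara and Ppargc1a were counted only a few times per library. Ppargc1a had 22, 15, 17 and 6 counts in Swhtr null treated libraries, against 4, 15, 6 and 8 counts in Swhtr null untreated libraries, or 1.01, 0.544, 0.577 and 0.239 CPM against 0.188, 0.844, 0.299 and 0.410 CPM. Swhtr null untreated library 2 was higher than 3 of the 4 treated libraries. Ppargc1a had a log2 fold change of 0.45 (SE 0.50, adjusted p = 0.711 by edgeR). Ppara, the receptor that fatty acids activate, had 6, 26, 13 and 15 counts in Swhtr null treated libraries, against 5, 17, 1 and 2 counts in Swhtr null untreated libraries. In either group library 2 was the highest, and the log2 fold change was 0.78 (SE 0.73, adjusted p = 0.645 by edgeR). Single libraries moved it, to 2.07 without Swhtr null untreated library 2 and to 0.42 without Swhtr null treated library 2, and it was 1.07 (adjusted p = 0.382) with the replicate number as a block within each genotype. Cpt1b had 16, 8, 16 and 7 counts in Swhtr null treated and 8, 10, 7 and 3 counts in Swhtr null untreated libraries, a log2 fold change of 0.35 (SE 0.57). With 1 library left out in turn, that of Cpt1b ran from 0.055 to 0.63 and that of Ppargc1a from 0.085 to 0.97.

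In WT treated against untreated slices, again 0 of the 10 genes were called, and neither was any other gene (0% of 24971). At an unadjusted p under 0.05 edgeR had 0 members and 4.81% of all genes, and non-overlapping libraries were seen for 0 members and 3.67% of all genes. By DESeq2, 9 genes of the whole table were called, none of them a member. The 7 enzymes had log2 fold changes from -0.05 to 0.08, and their 95% intervals lay together between a fold of 0.847 and a fold of 1.17. Cpt1a averaged 191 ± 5.998 CPM in WT treated and 183 ± 10.4 CPM in WT untreated slices, and Acadl averaged 106 ± 5.22 CPM in WT treated and 107 ± 9.21 CPM in WT untreated slices (SD, n = 4 each). Hadha averaged 174 ± 8.69 CPM in WT treated and 172 ± 3.94 CPM in WT untreated slices, and Hadhb averaged 94.4 ± 1.68 CPM in WT treated and 91.4 ± 4.68 CPM in WT untreated slices (SD, n = 4 each). The smallest p was that of Ppargc1a, with 5, 9, 5 and 4 counts in WT treated libraries, against 13, 7, 11 and 8 counts in WT untreated libraries. In CPM the levels were 0.226, 0.395, 0.209 and 0.169 in WT treated and 0.682, 0.368, 0.514 and 0.385 in WT untreated libraries. WT treated library 2 lay above 2 of the 4 WT untreated libraries, so that the groups overlapped. The log2 fold change was -0.95 (SE 0.53, adjusted p = 0.999 by edgeR).

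The genotypes were compared within each treatment. In treated slices, Swhtr null against WT, 0 of the 10 genes were called (0.0921% of all genes, 23), and none had libraries that did not overlap (4.06% of all genes). Ppargc1a alone had an unadjusted p under 0.05, as did 6.25% of all genes. It had 22, 15, 17 and 6 counts in Swhtr null treated libraries, against 5, 9, 5 and 4 counts in WT treated libraries. Swhtr null treated libraries 1 to 3 lay above all WT treated libraries, and library 4 (0.239 CPM) lay below WT treated library 2 (0.395 CPM). For Ppargc1a the log2 fold change between the genotypes was 1.22 (SE 0.51, adjusted p = 0.767 by edgeR), with a 95% interval of 0.10 to 2.34, and it stayed between 0.86 and 1.52 when any 1 library was left out. The 7 enzymes ranged from -0.10 for Acadm to 0.05 for Acadl on the log2 scale, with intervals between a fold of 0.831 and a fold of 1.14. Acadm averaged 52.9 ± 1.83 CPM in Swhtr null treated and 56.6 ± 4.804 CPM in WT treated slices (SD, n = 4 each).

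In untreated slices, Swhtr null against WT, 0 of the 10 genes were called (0.1% of all genes, 25) and for none did the libraries lie apart (2.86% of all genes). Acadl alone had an unadjusted p under 0.05, as did 5.36% of all genes. It had 112.1, 121.8, 121.8 and 116.9 CPM in Swhtr null untreated libraries, against 101.6, 96.6, 112.2 and 116.5 CPM in WT untreated libraries. WT untreated libraries 3 and 4 reached the lower part of the Swhtr null range. The log2 fold change was 0.15 (SE 0.07, adjusted p = 0.903 by edgeR), and in treated slices it was 0.05 (SE 0.07). The other 6 enzymes ran from -0.07 for Acadm to 0.08 for Hadhb. Ppara had 0.235, 0.956, 0.0499 and 0.103 CPM in Swhtr null untreated libraries, against 0.682, 0.945, 0.187 and 0.0482 CPM in WT untreated libraries, spread so widely within either group that its interval on the log2 scale ran from -2.13 to 1.17.

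The difference between the responses of the genotypes, taken as the log2 response to treatment in Swhtr null minus that in WT slices, passed the test for 0 of the 10 genes and for 0% of all genes. At an unadjusted p under 0.05 there were 0 members and 6.89% of all genes, and with a block for the replicate number within each genotype 52 genes of the whole table were called, none of them a member. The largest differences were those of Ppargc1a (1.399, SE 0.72, adjusted p = 0.715 by edgeR) and Ppara (1.14, SE 1.04), both on few counts. With 1 library left out in turn, the difference ran from 1.04 to 1.92 for Ppargc1a and from 0.54 without WT untreated library 2 to 2.43 without Swhtr null untreated library 2 for Ppara. Without the last of these libraries the difference of Ppara was the larger of them, where Ppargc1a had 1.92. Of the enzymes Hadhb differed most (-0.16, SE 0.11, adjusted p = 0.752), and the 95% intervals of the 7 lay between a fold of 0.764 and a fold of 1.17.

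**Figure D4:**
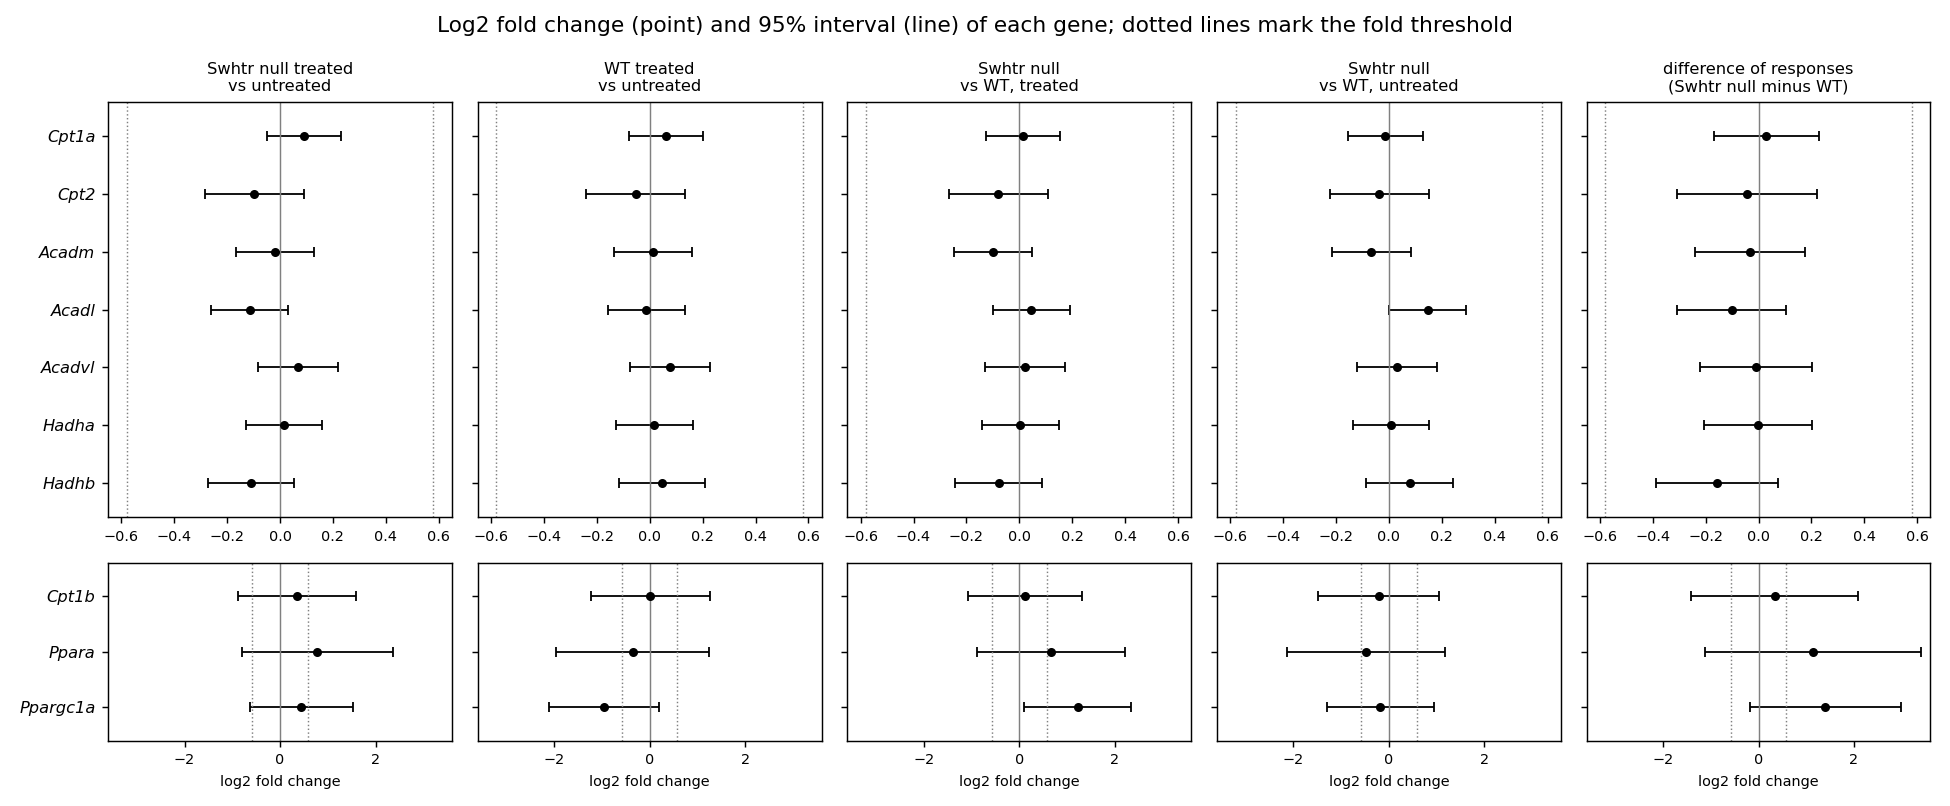
Log2 fold change (points) with its 95% interval (lines) of each gene in the 5 comparisons, with the 7 well expressed enzymes above and the 3 low genes below on a wider axis; dotted lines mark 0.58 in either direction. The intervals of the enzymes stay inside the dotted lines in all 5 comparisons, while those of Cpt1b, Ppara and Ppargc1a cross them.

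A further list held 16 genes of mitochondrial beta-oxidation or related to it. Among them were the acyl-CoA synthetase Acsl1, the carnitine carrier Slc25a20, the electron transfer flavoproteins and Cpt1c, the neuronal CPT1 form. Of the 16 genes, 0 were called in any of the 5 comparisons. In Swhtr null treated against untreated slices 7 of the 16 had a positive and 9 a negative log2 fold change, with a median of -0.042. The smallest p was that of Cpt1c, which had 36.5 ± 7.31 CPM in Swhtr null treated and 29.5 ± 4.35 CPM in Swhtr null untreated slices (log2 fold change 0.31, SE 0.12, adjusted p = 0.194 by edgeR). Next came Etfa, a subunit of the electron transfer flavoprotein (-0.14, SE 0.07), Decr1, a reductase for unsaturated chains (0.14, SE 0.07), and Eci2, an enoyl-CoA isomerase (-0.15, SE 0.08).

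The 11 peroxisomal genes, which shorten the longest chains before they reach mitochondria, held 0 called genes in any comparison, and in Swhtr null treated against untreated slices 3 had a positive and 8 a negative log2 fold change (median -0.064). Decr2, the peroxisomal reductase for unsaturated chains, had 26.5, 24.2, 27.0 and 25.5 CPM in Swhtr null treated libraries, against 30.2, 28.2, 31.1 and 30.1 CPM in Swhtr null untreated libraries (log2 fold change -0.21, SE 0.07, adjusted p = 0.12 by edgeR). All treated libraries of Decr2 lay below the untreated ones, and the gene did not pass the test. Abcd2, a peroxisomal importer of fatty acids, and Crot, the carnitine octanoyltransferase, had log2 fold changes of -0.46 (SE 0.20) and 0.15 (SE 0.07).

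Among 14 regulators that act with PPARA or PPARGC1A, 0 were called and 1 had an adjusted p under 0.05 with a fold change below the threshold. Pprc1, a coactivator of the same family as Ppargc1a, had 58.3, 67.8, 63.0 and 64.3 CPM in Swhtr null treated libraries, against 54.3, 48.4, 47.8 and 52.2 CPM in Swhtr null untreated libraries. All treated libraries lay above the untreated ones, and the log2 fold change was 0.32 (SE 0.06, adjusted p = 0.00814 by edgeR). In WT slices it was 0.06 (SE 0.06), and the difference between the responses did not pass the test (0.26, SE 0.09, adjusted p = 0.715). The corepressor Nrip1 (0.26, SE 0.09), the receptor partner Rxrb (-0.17, SE 0.06) and the orphan receptor Esrrb (1.61, SE 0.64, at 0.564 CPM in Swhtr null treated and 0.180 CPM in Swhtr null untreated slices) had adjusted p of 0.149, 0.179 and 0.204.

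Of 13 known target genes of PPAR receptors, 0 were called, and 4 had a positive and 9 a negative log2 fold change in Swhtr null treated against untreated slices (median -0.055). Fabp3, the fatty acid binding protein of heart muscle, had 3.57, 2.83, 2.48 and 2.43 CPM in Swhtr null treated libraries, against 2.26, 1.52, 2.04 and 1.64 CPM in Swhtr null untreated libraries. The treated libraries all lay above the untreated ones, and the log2 fold change was 0.59 (SE 0.23, adjusted p = 0.19 by edgeR). The lipid droplet proteins Plin5 and Plin2 had log2 fold changes of -0.76 (SE 0.36) and -0.33 (SE 0.19). Swhtr null treated library 2 was again lowest for Plin2, with 602 CPM, against 1014 to 1401 CPM in the other 3 libraries of its group.

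A list of 12 other mitochondrial genes, which serve import, passage through the outer membrane, protein quality control and the citrate cycle, was set beside the members. In Swhtr null treated against untreated slices 10 of the 12 had a negative log2 fold change (median -0.14, 0 called), whereas the 7 enzymes of fatty acid oxidation had 4 negative and 3 positive ones. Vdac1, a channel of the outer membrane, had 199.9, 184.3, 193.3 and 199.1 CPM in Swhtr null treated libraries, against 226.1, 219.5, 285.9 and 272.7 CPM in Swhtr null untreated libraries. All treated libraries lay below the untreated ones, and the log2 fold change was -0.37 (SE 0.08, adjusted p = 0.0134 by edgeR), short of the fold threshold. The protease Lonp1 (-0.27, SE 0.08), the chaperone Hspa9 (-0.22, SE 0.06) and the channel Vdac2 (-0.20, SE 0.07) had adjusted p of 0.0774, 0.0819 and 0.132. In WT slices 6 of the 12 were positive and 6 negative (median 0.0083).

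Cell type markers were set beside these values for Swhtr null treated against untreated slices. All 12 cardiomyocyte markers had positive log2 fold changes (median 2.28, 0 called), all 8 fibroblast markers had positive ones (median 0.27, 1 called), and so had all 6 endothelial markers (median 0.33, 0 called) and all 8 adipocyte markers (median 0.76, 0 called). The called gene was Dpt, a matrix protein of fibroblasts, with 364 ± 84.1 CPM in Swhtr null treated and 186 ± 57.97 CPM in Swhtr null untreated slices (SD, n = 4 each, log2 fold change 0.97, SE 0.23, adjusted p = 0.0486 by edgeR). Myh6, a myosin of heart muscle, had 0.778, 21.0, 13.0 and 0.716 CPM in Swhtr null treated libraries, against 0.141, 0.113, 0.0998 and 0.0513 CPM in Swhtr null untreated libraries (6.38, SE 1.54, adjusted p = 0.0556). Libraries 2 and 3 of the treated group were the high ones for Myh6. They had 0.290 and 0.543 CPM of Cpt1b (8 and 16 counts), beside 0.733 and 0.279 CPM (16 and 7 counts) in libraries 1 and 4. These counts of Cpt1b are too few to order the libraries by. The part of these differences in cell markers in the levels of the 10 genes was not tested.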

How the data were processed

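The authors sequenced paired ends of 150 bases, used STAR for alignment to mm10 (GRCm38) and GenomicAlignments for counting per Ensembl gene. The deposited values are raw counts, and all 16 columns were used. The sample labels and the methods name different library kits. Strand and overlap handling of the counting is not given in the sources used here and was read from genes that share exons.

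Counts were normalized by TMM and fitted in edgeR 4.0.16 (R 4.3.3) by the robust quasi-likelihood method, with 4 group means over 16 libraries, 12 residual degrees of freedom and the 24971 genes whose counts added up to at least 10. P-values were adjusted by Benjamini-Hochberg over all genes. SE is the absolute log2 fold change over the root of F. CPM are computed after TMM, and errors are SD over 4 libraries. P-values measure the spread between libraries taken as independent. Lengths and positions are from GENCODE M21, and promoter windows from RefSeq.

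Named are all 10 members, each other list's called genes, and up to 4 genes per pathway list with the smallest p in Swhtr null treated against untreated slices. Myh6 was named after its values were seen, as were Acsl1 and Slc25a20 as examples. A few genes within this rule were left out of the text. Members and lists were chosen with earlier results of these data known.

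Whether equal replicate numbers mark paired libraries is not stated. The deviations of same-numbered Swhtr null libraries correlated at 0.148, 0.591, 0.259 and 0.399, beside -0.479 to 0.334 for libraries of different number. In WT the same-numbered values were -0.108, -0.0836, 0.165 and 0.319, beside -0.322 to 0.429. The ranges overlapped in both genotypes, so pairing by number was not established. No 2 libraries of a group agreed within sampling noise. Alternatives were DESeq2 1.42.0, its size factors, edgeR's filter by expression, no filter, only the libraries compared, a replicate block, no fold threshold, and each library left out.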

Additional observations from a re-analysis of the deposited data

Results flagged for a closer look

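Of 80 groups of 4 libraries examined, over the 10 genes and 10 other lists, 5 held a library far from the other 3 of its group by Dixon's ratio of gap to range, where chance gives about 1 in 20. Hadha was low in WT treated library 4, with 160.9 CPM, against 177.0, 178.5 and 179.0 CPM in the other WT treated libraries. The summed level of the other beta-oxidation genes was high in WT untreated library 2 (613.4 CPM, against 597.2 to 598.5 CPM). That of the regulators was high in Swhtr null treated library 3 (632.4 CPM, against 607.3 to 609.2 CPM). The cardiomyocyte markers were high in WT untreated library 2 (22.17 CPM, against 7.817 to 8.735 CPM), and the adipocyte markers were high in Swhtr null untreated library 3 (832.8 CPM, against 605.3 to 619.8 CPM). The causes were not tested.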

How the results depend on the processing

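None of the 10 genes was called in the 5 comparisons wherever 1 of 24 other settings was run, of which 16 left out a library, and the smallest adjusted p of a member was then 0.121. The fit of only the libraries compared was not run for the difference of responses, nor the block within each genotype for Swhtr null against WT slices. The number of genes called over the whole table did move. For Swhtr null treated against untreated slices it was 155, and 464 by DESeq2, 450 with a replicate block, 616 with a replicate block within each genotype (a setting added after seeing the data), 6 with only the libraries compared and 544 without the fold threshold. For WT treated against untreated slices it was 0, and 9 by DESeq2, 1 without a filter, 2 with a replicate block, 19 with the block within each genotype, 1 with only the libraries compared and 1 without the fold threshold. By DESeq2 39 genes were called between treated Swhtr null and WT slices, against 23, and the difference of responses gave 52 with the block within each genotype, against 0. Leaving out 1 library gave 22 to 575 genes for Swhtr null treated against untreated slices, with 22, 49 and 575 without Swhtr null untreated library 4, 3 and 2 and 77, 80 and 300 without Swhtr null treated library 1, 2 and 3, and 0 to 3 genes for WT, with 3 without WT treated library 4 and 1 without WT untreated library 1, Swhtr null untreated library 3 or Swhtr null treated library 1 or 3. The causes were not tested. Of 50 log2 fold changes of members, 25 changed sign when some library was left out, the largest of them in size being -0.48 with all libraries, and 1 under another setting (Cpt1b in WT slices, -0.026 with the block within each genotype). Their ranges over libraries left out follow. In Swhtr null treated against untreated slices they were -0.052 to 0.011 for Acadm and -0.029 to 0.079 for Hadha. In WT treated against untreated slices they were -0.30 to 0.54 for Cpt1b, -0.12 to 0.027 for Cpt2, -0.043 to 0.046 for Acadm, -0.058 to 0.032 for Acadl and -0.74 to 0.25 for Ppara. Between genotypes in treated slices they were -0.021 to 0.038 for Cpt1a, -0.22 to 0.43 for Cpt1b, -0.0089 to 0.047 for Acadvl, -0.037 to 0.069 for Hadha and -0.15 to 0.0019 for Hadhb. Between genotypes in untreated slices they were -0.065 to 0.026 for Cpt1a, -0.50 to 0.31 for Cpt1b, -0.078 to 0.0023 for Cpt2, -0.017 to 0.083 for Acadvl, -0.016 to 0.025 for Hadha, -1.77 to 0.12 for Ppara and -0.70 to 0.077 for Ppargc1a. For the difference of responses they were -0.011 to 0.080 for Cpt1a, -0.19 to 0.65 for Cpt1b, -0.12 to 0.024 for Cpt2, -0.066 to 0.023 for Acadm, -0.061 to 0.038 for Acadvl and -0.046 to 0.061 for Hadha. Depth limits Cpt1b, Ppara and Ppargc1a, with 1 to 26 counts per library.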
